A study of Mus musculus with 12 samples.

Results

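The miRNAs of the imprinted Dlk1-Dio3 locus were followed through T cell development in the mouse. The members were chosen by name, as 45 listed miRNA numbers with or without the suffix of an arm, and 49 names for 41 of these numbers stand among the 548 names in the tables of mature miRNAs. The numbers miR-376b, miR-544, miR-654 and miR-758 have no name in those tables. Small RNA of 19 to 24 nt from C57BL/6 mice, with no genetic change or treatment given in the labels, was sequenced from 12 populations, with 1 library per population. The bone marrow libraries were LSK (Lineage- Sca+ cKit+), MPP (the same with CD135+ CD106+), LMPP (the same with CD135+ CD106-) and ProB (B220+ IgM- CD43hi). As these gates are given, that of LSK includes those of MPP and LMPP. LSK against MPP thus sets a gate against a part of it. The thymic CD4- CD8- CD3- CD90+ libraries were DN1 (CD44+ CD25-), DN2 (CD44+ CD25+) and DN3 (CD44- CD25+). DN4 was CD4- CD8- CD3lo CD90+ CD44- CD25-, and DP was CD4+ CD8+ CD3lo CD90+. The mature thymic libraries, CD4SP and CD8SP, were CD3hi CD90+ CD24lo cells with CD4 or CD8 alone. MEF, fibroblasts of embryos at E14.5, was the one library from outside the blood lineages.

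The Dlk1-Dio3 locus is an imprinted domain. Its protein genes Dlk1, Rtl1 and Dio3 are expressed from the paternal chromosome, while the long non-coding RNAs Meg3, Rian and Mirg and the miRNA hairpins within and between them are expressed from the maternal one. In the mouse these miRNAs are abundant in the embryo, the placenta and the brain, and the non-coding RNAs of the locus have also been tied to the upkeep of long-term hematopoietic stem cells.

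The 41 hairpins lie on the plus strand of chromosome 12 over 180.1 kb (GRCm38). By GENCODE M21, 1 lies in an exon of Meg3 and 5 lie antisense to an exon of Rtl1. A further 2 lie in introns of Rian, 8 in exons of Mirg and 3 in introns of Mirg, and 22 lie between the named genes of the locus. A mature sequence of the same arm was found in RefSeq (GRCm38.p6) for 46 of the 49 names. The sequences below are those of the members on which the results turn, with miR-300 and miR-381 added as a pair of near copies. Each is written 5′ to 3′, and the capitals mark the seed, bases 2 to 8, which pairs with target mRNAs.
miR-431: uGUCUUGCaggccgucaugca
miR-127: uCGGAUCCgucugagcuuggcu
miR-379: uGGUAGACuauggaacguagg
miR-494: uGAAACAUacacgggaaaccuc
miR-300: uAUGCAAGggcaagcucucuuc
miR-381: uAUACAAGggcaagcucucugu
miR-382: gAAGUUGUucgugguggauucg
miR-134: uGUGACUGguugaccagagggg
miR-541: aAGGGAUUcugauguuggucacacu
miR-409-3p: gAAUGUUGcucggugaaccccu

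The lines follow the order along the chromosome. miR-127 lies at chr12:109592888-109592909, antisense to an exon of Rtl1, whose transcript it is known to cleave in the mouse. miR-494 lies at chr12:109715367-109715388, in the stretch between Rian and Mirg, and miR-541 at chr12:109742422-109742446, in an intron of Mirg. The seeds of these 46 names all differed from each other, and the other 3 names were not compared. From miR-381 to miR-300 the changes are A4G, G21T and T22C, counted from the 5′ end, and the first of these lies in the seed.

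Levels are given as RPM, reads per 1000000 in the mature table of the library. The tables held from 63386 reads in DN4 to 4572864 in DN3. With 1 library per population no difference has a replicate check and no test between populations was possible. Intervals are exact 95% intervals and cover counting error only, since PCR reads are not independent molecules. In a bulk library, fewer cells that express a miRNA and less of it per cell cannot be told apart. Locus reads mostly started at base 3 in 8 libraries, at base 2 in DN4, DP and MEF and at base 1 in DN3, counted on the mature miRNA, and the part of this difference in the levels was not tested.

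Reads of 2 members differed from the mouse reference in the early marrow libraries, counting the mature and the hairpin tables together. In miR-376c, whose mouse base 16 is T, reads carried T16C in 19 of 40 in LSK, 18 of 19 in MPP, 52 of 54 in LMPP and 3 of 3 in DN3, against 0 of 101 in MEF. In miR-412-5p, reads carried C12T in 16 of 17 in LSK, 21 of 21 in MPP, 33 of 33 in LMPP and 2 of 2 in ProB, against 0 of 52 in MEF. Both are the bases of the human forms of these miRNAs. MPP and LMPP thus held almost no reads with the mouse base of either miRNA, while LSK held both forms of miR-376c.

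**Figure D1:**
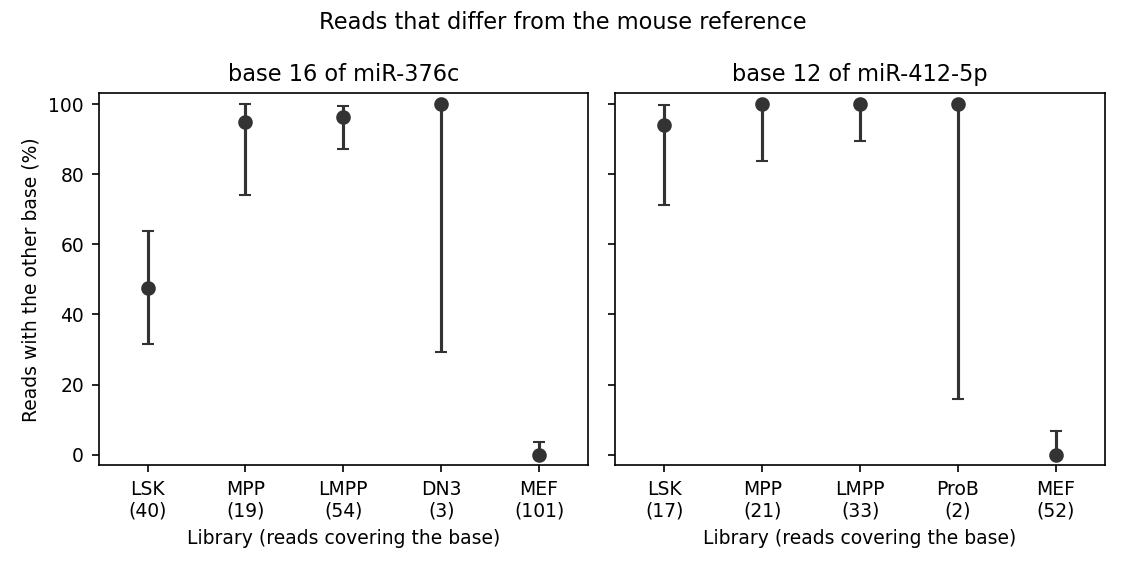
Share of reads (vertical axis, %) that carry the other base at base 16 of miR-376c (left) and base 12 of miR-412-5p (right) in each library with reads there; bars are exact 95% binomial intervals and the number of reads stands under each library. The share was 96.3% in LMPP and 47.5% in LSK for miR-376c, and 0% in MEF for both.

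Reads of both tables with the mouse base, set over the mature total, gave miR-376c 11.8 reads per 1000000 in LSK, 0.526 in MPP, 2.04 in LMPP and 327.2 in MEF. These values include hairpin-table reads and so are not comparable with the RPM levels below. Where the other reads came from was not tested, and neither was their part in members whose mouse and human sequences are the same. The liver miRNA miR-122 stood in these libraries at 1163 RPM in LSK, 1234 RPM in MPP and 4313 RPM in LMPP, against at most 28.6 RPM in the other blood-cell libraries. The muscle list, detected with 4 of 4 markers in LMPP, summed to 112 RPM there and to at most 20.997 RPM in the other blood-cell libraries. miR-541 is a member whose human form is known to differ in sequence, and 90.3% of its reads in LSK, 93.8% in MPP and 92.7% in LMPP matched the mouse hairpin exactly over 18 bases, against 93.2% in MEF. These shares are taken among reads already named miR-541, so they cannot show how many reads of another origin a library held. The values of miR-541 are given beside those of the conserved members. The list of 6 progenitor miRNAs summed to 62500 RPM or more in LSK, MPP and LMPP and to at most 8501 RPM in the other blood-cell libraries. It is not particular to progenitors, since it summed to 120322 RPM in MEF, where miR-125b-5p alone stood at 109846 RPM.

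Reads of the locus were most abundant in the fibroblasts. The members together took 6.37% of all mature miRNA reads in MEF, or 63658 RPM (62769 to 64553). Among blood cells they stood at 636.6 RPM (600.1 to 674.8) in LSK, 157.8 RPM (140.4 to 176.7) in MPP and 570.9 RPM (524.5 to 620.2) in LMPP. LSK and LMPP were therefore the highest blood-cell libraries and their intervals overlapped. These totals count all reads of the members, and the part of reads of another origin in them was not tested. miR-541, whose human form differs, stood at 173.9 RPM in LSK and 41.9 RPM in LMPP. Reads of miR-376c with the mouse base, in both tables together, numbered 21 in LSK and 2 in LMPP. miR-494 stood at 21.9 RPM in LSK and 100.1 RPM in LMPP.

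The other blood-cell libraries held few reads of the locus. ProB held 20 reads of the locus (7.82 RPM, 4.78 to 12.1), DN1 80 reads (21.3 RPM, 16.9 to 26.5), DN2 16 reads (6.64 RPM, 3.79 to 10.8) and DN3 11 reads (2.41 RPM, 1.20 to 4.30). DN4 held 10 reads (157.8 RPM, 75.7 to 290.1), DP 20 reads (38.2 RPM, 23.3 to 59.0), CD4SP 37 reads (8.23 RPM, 5.79 to 11.3) and CD8SP 13 reads (4.89 RPM, 2.60 to 8.36). In order of level, MPP and DN4 overlapped, as did DP and DN1, and as did each neighbouring pair among CD4SP, ProB, DN2, CD8SP and DN3.

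**Figure D2:**
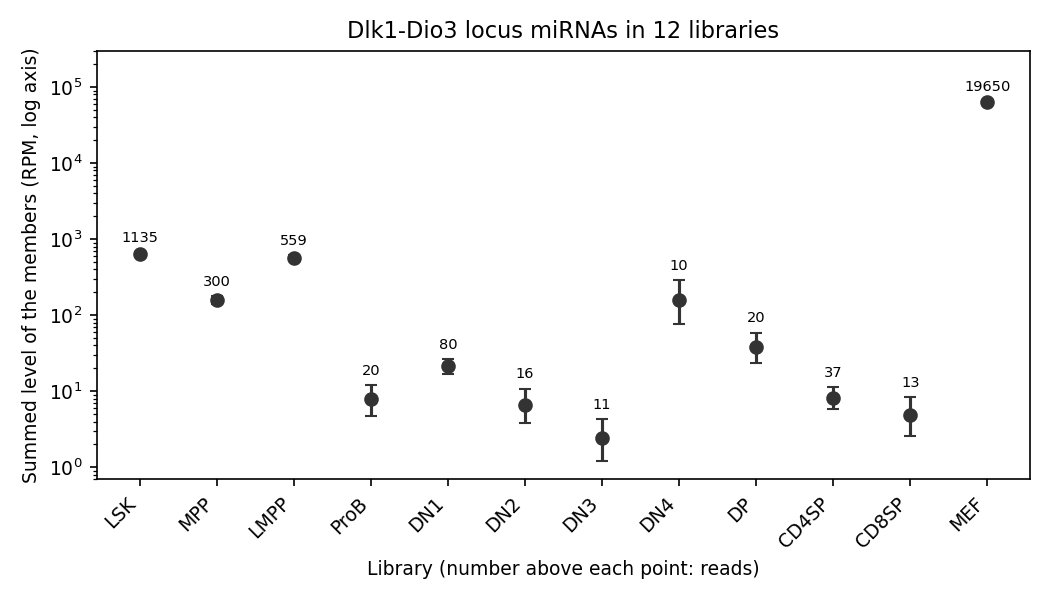
Summed level of the 49 members (RPM, log axis) in each of the 12 libraries, with exact 95% Poisson intervals and the number of reads above each point. MEF stands at 63658 RPM, LSK and LMPP near 600 RPM, and DN4 at 157.8 RPM with only 10 reads behind it.

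A ratio was called when its interval lay wholly outside the 2-fold range, with 100 RPM and 10 reads as minimum in the library with more. By this rule the locus total was higher in LSK than in MPP (4.04-fold, 3.55 to 4.60) and lower in MPP than in LMPP (ratio 0.276, 0.239 to 0.319). It was higher in LMPP than in ProB (73.0-fold, 46.8 to 120.4) and than in DN1 (26.8-fold, 21.2 to 34.3). Without miR-376c and miR-412 these ratios were 4.13, 0.285, 66.95 and 24.6. The mature tables of these libraries held 1 read of miR-412, in MPP, so this setting in effect left out miR-376c. With only member sequences that match a mouse hairpin exactly over 18 bases the ratios were 4.17, 0.287, 72.6 and 25.2. Both of these settings were chosen after the data were seen. Neither can tell the origin of reads in members whose mouse and human sequences are the same. Nothing is therefore concluded from them on that origin.

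Within the thymus only DN3 and DN4 were called different, with a ratio of 0.015 (0.0059 to 0.040), and this rests on the 10 reads of DN4. It was not called with TMM factors (ratio 0.029), size factors (0.025), sequences seen once left out (0.0068), miR-127 left out (0.153) or exact sequences only (0.014). DN4 and DP did not pass the rule (ratio 4.13, 1.73 to 9.25). The other thymic pairs stayed below 100 RPM in both libraries and were not judged.

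Of single members, 15 names reached 10 reads in a blood-cell library and 35 did so in MEF, and 13 of the 49 stayed below 10 reads everywhere. Reads from at least 1 blood-cell library were found for 35 names, and 14 names were read in MEF only. Among those 35 names the highest blood-cell level was in LSK for 20, in LMPP for 13 and in MPP and DN4 for 1 each.

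**Figure D3:**
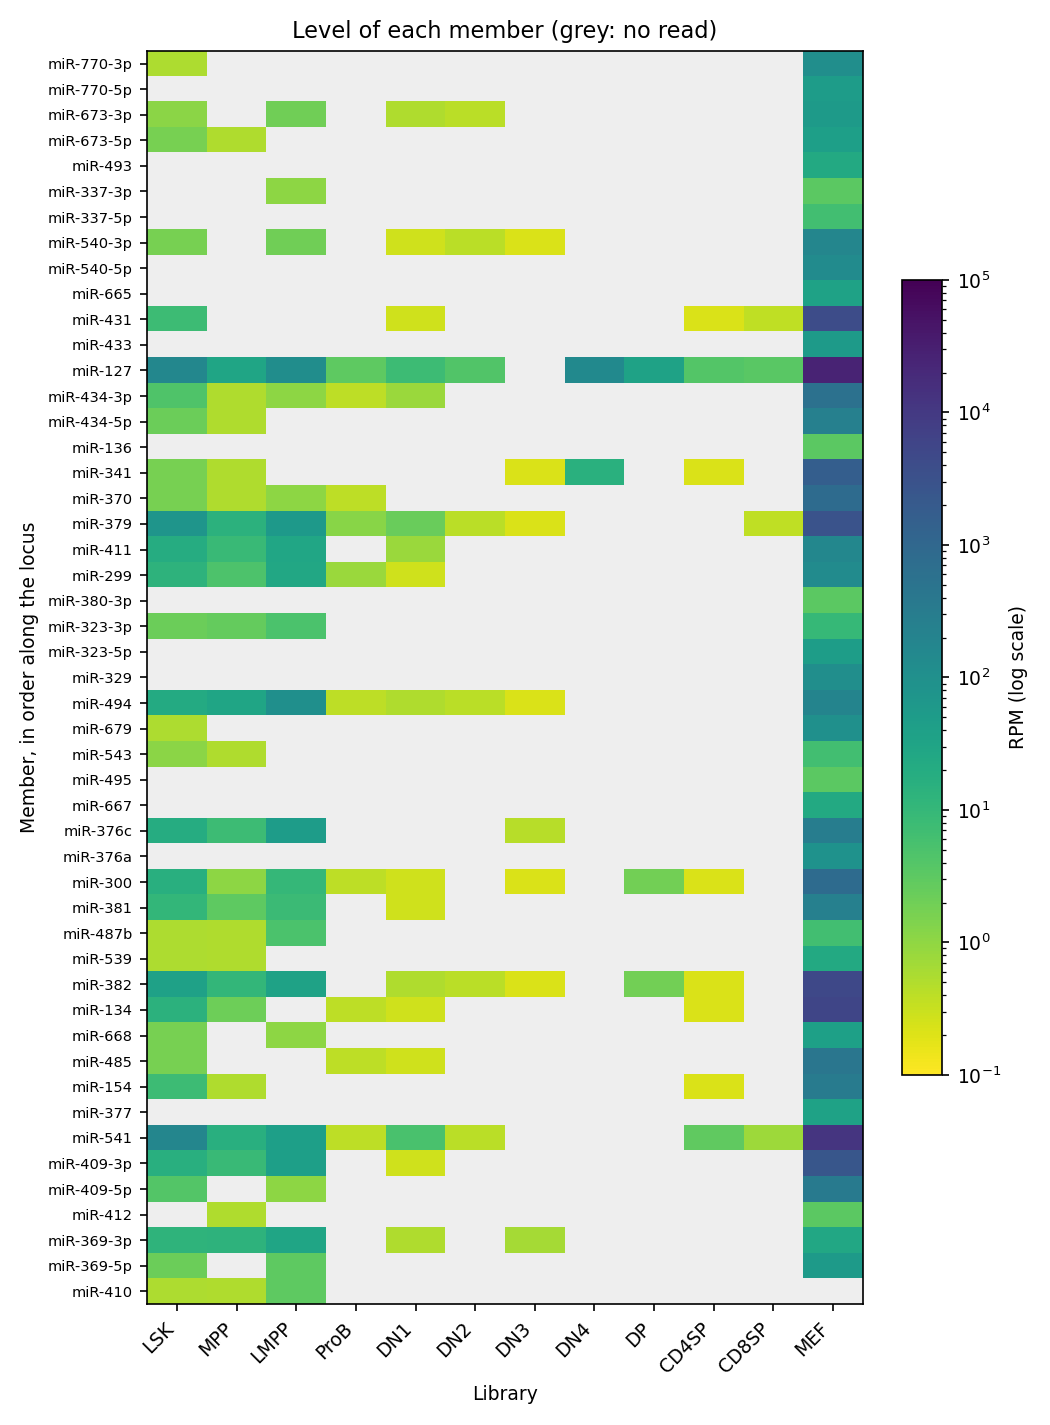
Level of each of the 49 member names (rows, in order along the locus) in each library (columns), coloured by RPM on a log scale, with grey where no read was found. The MEF column is filled for 48 names, LSK holds 33, and the thymic columns from DN2 on hold 8 or fewer.

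In the names of the tables, the members below are mmu-miR-127, mmu-miR-541, mmu-miR-494, mmu-miR-379, mmu-miR-382, mmu-miR-409-3p, mmu-miR-376c, mmu-miR-134 and mmu-miR-431. miR-127, the leading miRNA of the group antisense to Rtl1, was read in every library except DN3. It stood at 163.8 RPM in LSK, 29.5 RPM in MPP, 116.4 RPM in LMPP, 3.13 RPM in ProB, 7.72 RPM in DN1 and 4.15 RPM in DN2. DN3 had 0 of 4572864 reads, for which the upper limit of the interval is 0.807 RPM, and then came 142.0 RPM in DN4, 34.4 RPM in DP, 4.002 RPM in CD4SP, 3.38 RPM in CD8SP and 24740 RPM in MEF. In blood cells it was thus high in LSK, LMPP and DN4 and not read in DN3.

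The DN4 and DP values of miR-127 rest on 9 and 18 reads. It made up 9 of the 10 reads of the locus in DN4 and 18 of the 20 in DP. In these libraries, whose reads begin at base 2 as in MEF, the locus was therefore represented almost by miR-127 alone.

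miR-541, read from the 5p arm, was the highest member in LSK at 173.9 RPM (155.1 to 194.4). It stood at 16.3 RPM in MPP, 41.9 RPM in LMPP, 0.391 RPM in ProB, 5.33 RPM in DN1, 0.415 RPM in DN2, 2.89 RPM in CD4SP, 0.752 RPM in CD8SP and 11743 RPM in MEF. No read was found in DN3, DN4 or DP, where the upper limits of the interval are 0.807, 58.2 and 7.04 RPM. Among blood cells this member, whose human form differs, had its highest level in LSK, and its intervals in LSK, MPP and LMPP did not overlap.

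miR-494 had another order. Its reads numbered 39 in LSK (21.9 RPM), 58 in MPP (30.5 RPM) and 98 in LMPP (100.1 RPM), then 1 in ProB, 2 in DN1, 1 in DN2 and 1 in DN3, 0 in DN4, DP, CD4SP and CD8SP, and 59 in MEF (191.1 RPM). Of the 9 members given in full it had the smallest ratio of MEF over LMPP.

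miR-379, the first miRNA of the large cluster, stood at 73.5 RPM in LSK, 13.7 RPM in MPP and 61.3 RPM in LMPP. It had 3 reads in ProB, 9 in DN1, 1 each in DN2, DN3 and CD8SP, 0 in DN4, DP and CD4SP, and 881 reads (2854 RPM) in MEF. These levels leave out the hairpin tables. Those held a further 65 reads of its 5p arm in LSK, 6 in MPP, 13 in LMPP and 34 in MEF, beside 131 mature-table reads in LSK. miR-382 stood at 35.9 RPM in LSK, 10.5 RPM in MPP, 35.7 RPM in LMPP and 5041 RPM in MEF, with 0 reads in ProB, DN4 and CD8SP and 1 or 2 reads in each of DN1, DN2, DN3, DP and CD4SP. For both, the values in LSK and LMPP were close to each other and that in MPP was smaller.

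miR-409-3p stood at 16.8 RPM in LSK, 8.41 RPM in MPP, 41.9 RPM in LMPP and 2475 RPM in MEF, with 1 read in DN1 and 0 in the other libraries. miR-376c, counted with both bases in the mature tables, had 34 reads in LSK, 15 in MPP, 46 in LMPP, 2 in DN3, 90 in MEF and 0 in the other libraries. With miR-494 these were, among the 9 members given in full, those whose count in LMPP was above that in LSK.

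miR-134, known to limit the size of dendritic spines in rat neurons, stood at 14.0 RPM in LSK, 2.10 RPM in MPP and 5462 RPM in MEF. It had 1 read each in ProB, DN1 and CD4SP and 0 in LMPP, DN2, DN3, DN4, DP and CD8SP. miR-431, antisense to Rtl1, stood at 7.85 RPM in LSK and 3926 RPM in MEF, with 1 read each in DN1, CD4SP and CD8SP and 0 in the other libraries. Both were thus among the 6 highest members of MEF and had no read in LMPP.

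Other members with at least 10 reads in a blood-cell library were miR-154, miR-299, miR-300, miR-369-3p, miR-381 and miR-411. Their highest blood-cell levels ran from 7.85 RPM for miR-154 to 29.6 RPM for miR-369-3p. miR-300 had 29 reads in LSK, 2 in MPP and 10 in LMPP. miR-369-3p had 29 reads in LMPP (29.6 RPM) and 8 in MEF (25.9 RPM), a ratio of MEF over LMPP of 0.875 (0.346 to 1.96), so that the levels of these libraries were not told apart. The members with at least 10 reads in MEF and fewer in every blood-cell library were miR-323-5p, miR-329, miR-341, miR-369-5p, miR-370, miR-376a, miR-377, miR-409-5p, miR-433, miR-434-3p, miR-434-5p, miR-485, miR-540-3p, miR-540-5p, miR-665, miR-668, miR-673-3p, miR-673-5p, miR-679, miR-770-3p and miR-770-5p. Below 10 reads in every library were miR-136, miR-323-3p, miR-337-3p, miR-337-5p, miR-380-3p, miR-410, miR-412, miR-487b, miR-493, miR-495, miR-539, miR-543 and miR-667.

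Between LSK and MPP and between MPP and LMPP few members were abundant enough to be judged. Those that were reached 100 RPM only in the library where they were high, which sets their direction. Their counts are therefore a description, and nothing is read from them against the shares of all names. Of 2 members judged between LSK and MPP, both were higher in LSK, where 2.14% of all names judged were higher. miR-541 was 10.7-fold higher (7.36 to 15.97) and miR-127 5.56-fold higher (4.17 to 7.54). With no minimum level, 30 of the 34 members with a read in either library had a higher RPM in LSK (88.2%), beside 55.9% of all names. Between MPP and LMPP both members judged were lower in MPP, where 13.5% of all names judged were lower. miR-127 was 3.95-fold (2.85 to 5.54) and miR-494 3.28-fold (2.35 to 4.62) higher in LMPP. With no minimum level, 8 of 31 members had a higher RPM in MPP (25.8%), close to the 30.7% of all names.

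miR-541 stayed below 100 RPM in both MPP and LMPP, and its ratio of MPP over LMPP was 0.389 (0.236 to 0.636). Neither miR-127 nor miR-494 passed the rule between MPP and LMPP with TMM factors or size factors, which moved the log2 ratio of MPP over LMPP by 0.28 and 0.17. Both members then stood below 100 RPM in LMPP. The ratio of miR-127 was 0.307 (0.219 to 0.426) with TMM factors and 0.285 (0.203 to 0.396) with size factors, still outside the 2-fold range. That of miR-494 was 0.343 (0.244 to 0.480) with size factors, also outside it. With TMM factors it was 0.370 (0.263 to 0.517), with an interval that reached into the 2-fold range. miR-494 did not pass with exact sequences only. With each library thinned to the depth of DN4, no member passed in either of these pairs. Markers of other cells were also read in these libraries. The mesenchymal list summed to 182.3 RPM in LSK with 6 of 6 read, 128.8 RPM in MPP with 5 of 6 read and miR-145 at 0, and 629.1 RPM in LMPP with 6 of 6 read, and to 74.5 RPM or less in the other blood-cell libraries. The red-cell list, with 3 of 3 read, summed to 1661 RPM in LSK, 1466 RPM in MPP and 4655 RPM in LMPP, and to between 19.1 RPM in DP and 4652 RPM in DN3 in the other blood-cell libraries. Both lists and the locus total were higher in LMPP than in MPP. Both lists were also higher in LMPP than in LSK, while the intervals of the locus total overlapped there. Among the 35 members read in a blood-cell library, the highest blood-cell level was in LSK for 20 and in LMPP for 13. In DN3 the red-cell list stood at 4652 RPM and the locus at 2.41 RPM. The part of other cells in the level of the locus was not tested.

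From LMPP to ProB and to DN1 the same members, miR-127 and miR-494, were judged and both were higher in LMPP, beside 30.6% of all names against ProB and 38.0% against DN1. Both reached 100 RPM only in LMPP, which sets their direction. These counts are therefore a description too, and nothing is read from them against the shares of all names. miR-127 was 37.2-fold (18.3 to 88.2) higher in LMPP than in ProB and 15.1-fold (9.95 to 23.5) higher than in DN1. For miR-494 the ProB library held 1 read, and the ratio of 256 had an interval of 44.9 to 10206. With TMM or size factors neither member reached the 100 RPM limit in LMPP, so that neither passed the rule. With no minimum level, 23 of 25 members had a higher RPM in LMPP than in ProB (69.4% of all names did) and 23 of 26 a higher one than in DN1 (67.9% of all names). Within the thymus no member was judged, since miR-127 in DN4, the one value above 100 RPM, rests on 9 reads.

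MEF stood apart from all blood cells. It held 24 members at 100 RPM or more, of 181 names at that level, and 8 at 1000 RPM or more, of 65 names. Apart from miR-127 and miR-541 against LSK and miR-127 and miR-494 against LMPP, these members passed the minimum of level and reads only through MEF, so the minimum sets the direction of nearly all of them and their counts are a description. By the rule all 24 were higher in MEF than in LSK, MPP, ProB, DN1, DN2, DN3, DP, CD4SP and CD8SP, and 23 of 24 were higher than in LMPP and 22 of 24 than in DN4. The share of all names judged that were higher in MEF was 45.9% against LSK, 46.4% against MPP, 43.9% against LMPP, 51.8% against ProB, 50.9% against DN1 and 51.4% against DN2. It was 45.5% against DN3, 35.5% against DN4, 51.0% against DP, 53.2% against CD4SP and 52.0% against CD8SP. With no minimum level, 47 of the 49 members had a higher RPM in MEF than in every blood-cell library, the exceptions being miR-369-3p and miR-410, beside 143 of all 548 names (26.1%). Of the 49 names, 14 were read in MEF only, which sets their direction. As 1 read in MEF is 3.24 RPM, some members, such as miR-136, counted as higher on 1 read. This count is therefore also a description, and nothing is read from it against the share of all names.

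The locus total of MEF was above that of LSK by 99.99-fold (94.2 to 106.2), above that of LMPP by 111.5-fold (102.5 to 121.5) and above that of MPP by 403.5-fold (360.0 to 453.7). Against LSK the ratios of the 24 members ran from 8.58 for miR-411 to 956.8 for miR-341, and 2 of the 24 had no read in LSK and entered at the floor. miR-127 was 151.0-fold (134.4 to 170.4) and miR-541 67.5-fold (60.1 to 76.1) higher in MEF than in LSK. The size of the gap thus differed by member.

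miR-494 was the member that did not pass the rule against LMPP, with a ratio of 1.91 (1.36 to 2.66). In contrast miR-134, with 0 reads in LMPP, was at least 1448-fold higher in MEF, which is the lower limit of its interval. The ratio itself, with a floor of 3 counts in LMPP, was 1783. Against DN4, whose floor is 47.3 RPM, miR-329 and miR-770-3p were the members that did not pass. In MEF the mesenchymal list summed to 22613 RPM, all 6 of its miRNAs being read, and the pan-blood miR-142 list summed to 158.7 RPM, against 8207 RPM or more in every blood-cell library.

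The make-up of the locus reads does not depend on the scaling of the libraries, and it differed between them. miR-541 made up 27.3% (24.7 to 30.01) of the locus reads in LSK, 10.3% (7.13 to 14.3) in MPP, 7.33% (5.31 to 9.82) in LMPP and 18.4% (17.9 to 19.0) in MEF. miR-494 made up 3.44% (2.45 to 4.67) in LSK, 19.3% (15.02 to 24.3) in MPP, 17.5% (14.47 to 20.9) in LMPP and 0.300% (0.229 to 0.387) in MEF. For both, MPP and LMPP overlapped and lay apart from LSK and from MEF.

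miR-127 made up 25.7% of the locus reads in LSK, 18.7% in MPP, 20.4% in LMPP and 38.9% in MEF. miR-134 made up 8.58% in MEF, 2.20% in LSK and 0 of 559 reads in LMPP. miR-382 made up 5.64% in LSK, 6.67% in MPP, 6.26% in LMPP and 7.92% in MEF, and its intervals in LSK, MPP and LMPP overlapped. miR-127 and miR-134 thus took a larger share in MEF than in LSK or LMPP, with intervals that did not overlap.

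**Figure D4:**
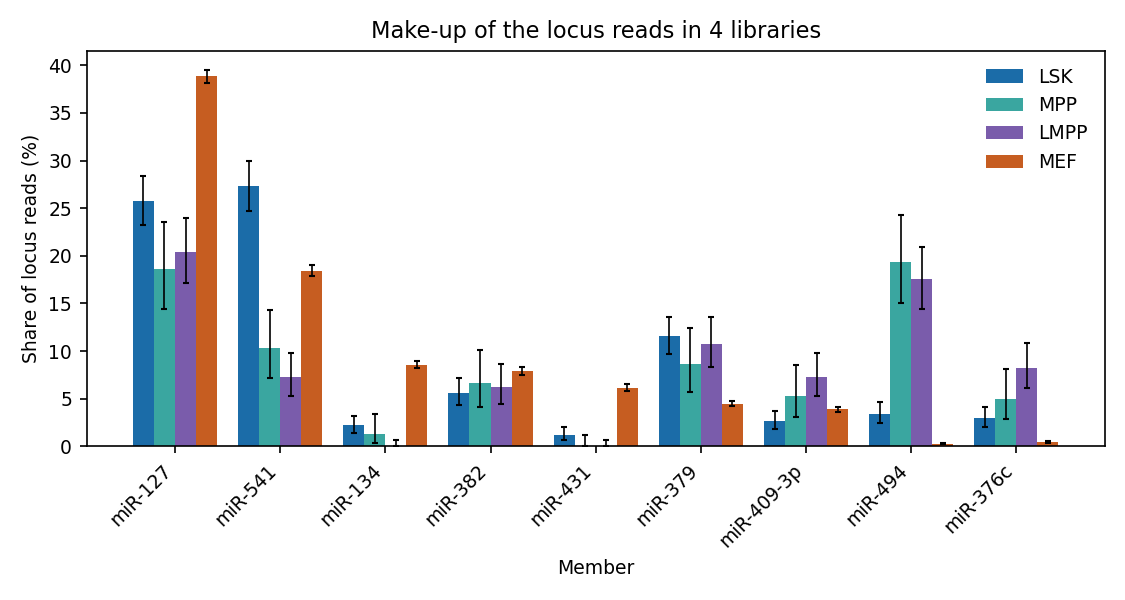
Share of the locus reads (vertical axis, %) taken by each of 9 members in LSK, MPP, LMPP and MEF; error bars are exact 95% binomial intervals. miR-541 takes 27.3% in LSK, miR-494 takes 19.3% in MPP and 17.5% in LMPP, and miR-127 takes 38.9% in MEF.

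By position, the 16 names from miR-770 to miR-136 lie in Meg3, antisense to Rtl1 or between these genes. They made up 47.4% of the locus reads in MEF (46.7 to 48.1), 28.8% in LSK (26.2 to 31.5), 19.7% in MPP (15.3 to 24.6) and 21.5% in LMPP (18.1 to 25.1). The group from miR-379 to miR-410 (31 names) made up 48.8% in MEF, 70.7% in LSK, 79.7% in MPP and 78.4% in LMPP. The Rian pair, miR-341 and miR-370, made up 3.79% in MEF and 0.529% or 0.667% in LSK and MPP. In the group from miR-770 to miR-136, most reads were those of miR-127. It gave 292 of 327 in LSK, 56 of 59 in MPP, 114 of 120 in LMPP and 7637 of 9318 in MEF. The LSK, MPP and LMPP libraries held a larger share of the downstream group than MEF did. This group holds miR-376c, most of whose reads in MPP and LMPP carried the other base. The part of reads of another origin in these shares, and in those of the single members above, was not tested.

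Each hairpin gives a 5p and a 3p arm, of which usually one is kept as the mature miRNA. In MEF, with both tables together, 31 hairpins had at least 30 reads. The 5p arm took over 90% of reads in 13 of them and the 3p arm in 9, and neither arm did so in the other 9. Neighbours thus differed in the arm that was kept: miR-127 gave 7.54% 5p reads (6.99 to 8.11) and miR-431 gave 94.97% (93.7 to 96.0), though both are antisense to Rtl1.

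**Figure D5:**
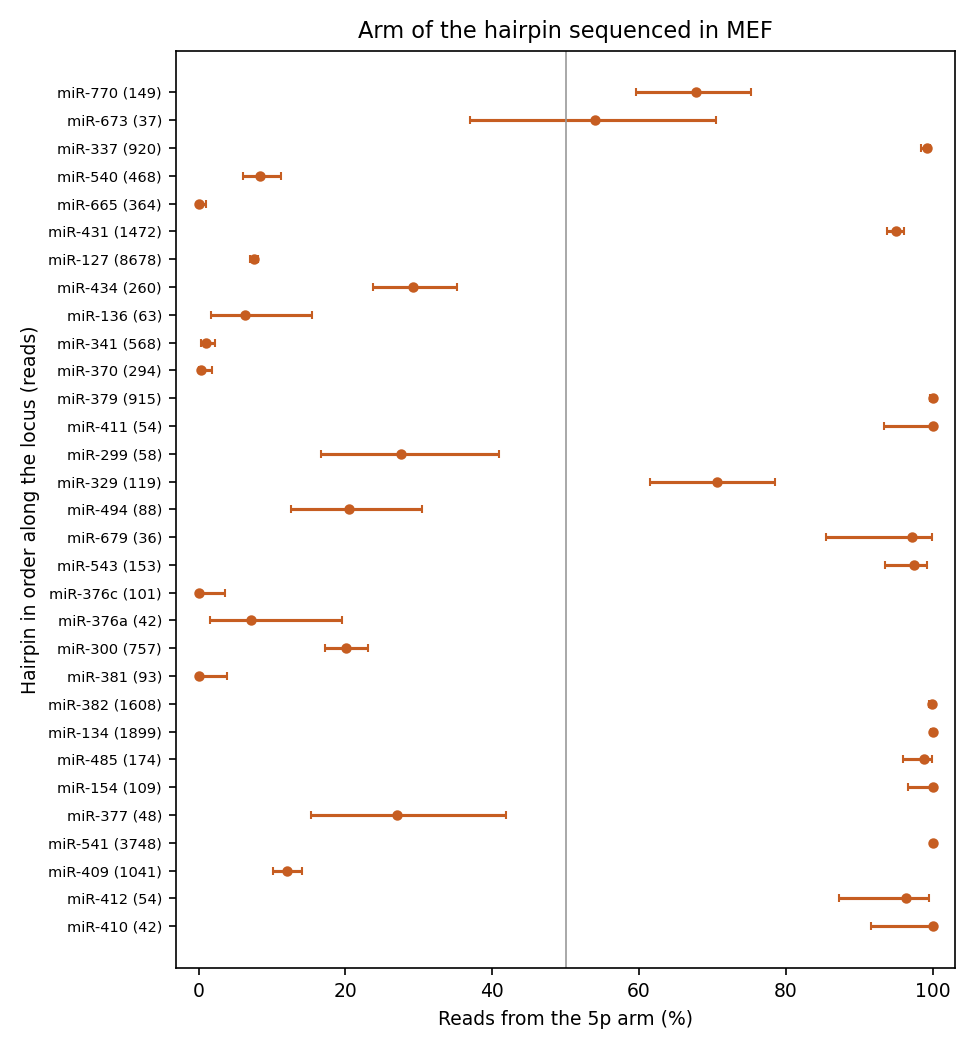
Share of reads from the 5p arm (horizontal axis, %) for 31 hairpins in MEF, in order along the locus, with exact 95% binomial intervals and the number of reads in parentheses. miR-134 and miR-379 are at 100%, miR-127 is at 7.54% and miR-494 at 20.5%.

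The main arm of miR-127 and miR-379 in LSK and LMPP was that of MEF. miR-127 gave 6.82% 5p reads in LSK (4.38 to 10.1) and 4.76% in LMPP (1.77 to 10.1), and miR-379 gave 99.5% in LSK and 98.6% in LMPP. For miR-494 the 5p arm took 18 of 88 reads in MEF (20.5%, 12.6 to 30.4), 1 of 44 in LSK and 0 of 100 in LMPP, with an interval up to 3.62%. The interval of MEF thus lay above that of LMPP for this member.

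Reads with G in place of A were counted at positions known from other tissues for A-to-I editing, which sequencing reads as G. At base 6 of miR-376c in MEF, 6 of 101 reads carried A6G (5.94%, 2.21 to 12.5), against 6 of 708 bases (0.847%, 0.312 to 1.84) at the other A positions of the same miRNA. At base 5 of miR-379 in MEF the share was 0.437% (0.119 to 1.12), beside 0.410% (0.230 to 0.675) at the other A positions. In LSK, miR-379 had 3 of 196 reads with A5G (1.53%, 0.317 to 4.41) beside 0 of 784 bases elsewhere, with an interval up to 0.469%. Of the positions counted, only that of miR-376c in MEF had an interval that lay above that of its other A positions. At base 4 of miR-381 in MEF, 1 of 93 reads carried A4G. A miR-381 read with A4G that ends before base 21 is the same as miR-300, so this count cannot decide for miR-381. In MEF, 12 of 242 miR-300 reads ended before that base.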

How the data were processed

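In the deposited tables every distinct sequence has a row with its miRNA name, length, position and reads. The values are raw counts that were not normalised, per the file headers. One table of a library covers mature miRNAs, and another covers what was left and placed on hairpins. No hairpin table of CD4SP was used here, and the tables of CD8SP were taken by the names they hold, which are those of the opposite kind. How adaptors were trimmed and reads aligned is not given in the sources used here.

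Reads were added up per name over the mature tables, and a sequence with several names was split equally. RPM values use each library's mature total. Ratios carry exact 95% conditional binomial (Clopper-Pearson) intervals, levels Poisson intervals and shares binomial ones, and a count of 0 was taken as 3 counts per library. Placement used the first 18 bases of a read on the RefSeq hairpins. Members with at least 10 reads in a library are named, and values in every library are given for the 6 highest in blood cells and the 6 highest in MEF. The rule was tested on simulated data. The members, lists and rules were chosen with earlier results of these data known. Alternatives used edgeR 4.0.16 and DESeq2 1.42.0 only for scaling factors. Analyses used Python 3.11.15, numpy 2.4.6, scipy 1.17.1, pandas 2.3.3, matplotlib 3.10.9 and R 4.3.3.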

Additional observations from a re-analysis of the deposited data

Results flagged for a closer look

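Some members had at least 10 reads in the hairpin tables and more reads there than in the mature tables, on which the levels rest. In MEF these were miR-337 with 917 hairpin-table reads, miR-300 with 466, miR-540 with 375, miR-665 with 353, miR-543 with 151, miR-770 with 100, miR-329 with 86, miR-412 with 53, miR-410 with 42, miR-377 with 37 and miR-667 with 22. The mature tables of MEF held 3 reads of miR-337, 11 of miR-665 and 2 of miR-543, and none of miR-410. In LSK they were miR-337 with 25 reads, miR-493 with 22 and miR-412 with 17. In MPP they were miR-412 with 21 reads and miR-493 with 16, and in LMPP miR-412 with 33 and miR-493 with 18. No control library exists for this comparison, and the counts lie above the 3 counts that stand for 0. The hairpin tables held 17.6% of the locus reads in MEF (17.2 to 18.1), beside 6.28% over all names, and 17.0% in LSK (15.1 to 19.1), beside 9.98%.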

How the results depend on the processing

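No paired analysis was possible because each population has 1 library and the labels give no replicate numbers. With the alternatives run, no called locus total changed direction. The locus total of LSK over MPP (1.73) and of MPP over LMPP (0.333) were no longer called after thinning to the depth of DN4, nor with a 4-fold rule (4.04 and 0.276). DN3 over DN4 was not called with TMM factors (0.0292), size factors (0.0248), sequences seen once left out (0.00678), miR-127 left out (0.153) or exact sequences only (0.0139). DN4 over DP passed with both tables added (4.69), a 1.5-fold rule (4.13) and star names added (4.96). The setting with both tables added joins names by number and so also counts star names. No hairpin-table read of the locus stood in DN4 or DP, and 2 star reads stood in DN4.

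The count of members called, 2 for each of the 4 pairs from LSK to DN1, was 0 with TMM and with size factors for MPP and LMPP, LMPP and ProB, and LMPP and DN1. For these pairs it was 1 without sequences seen once, with both tables added, or with exact sequences only. With both tables added 1 was also called between DN3 and DN4 and between DN4 and DP, where DN4 gained star reads only. Thinning gave 0, 0, 0 and 1 in the 4 pairs, and the 4-fold rule 0 for MPP and LMPP. With no RPM minimum the counts were 8 for LSK and MPP, 7 for MPP and LMPP, 11 for LMPP with ProB and with DN1, and 1 for DN1 and DN2, DN2 and DN3, DP and CD4SP, and DP and CD8SP. The 21 members above all 11 blood-cell libraries in MEF numbered 15 (thinned) to 31 (both tables) under the alternatives. The cause of these changes was not tested, apart from thinning, which leaves fewer reads. Depth limits DN4 most, with a floor of 47.3 RPM.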

Other observations

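Names ending in a star, the second arm of a listed number, held 561.5 reads (1819 RPM) in MEF, 32 in LSK, 19 in LMPP and at most 4 in any other library. Of other miRNA numbers mapped to the locus, 5 names stand in the tables, with 97 reads in MEF, 9 in LSK and at most 2 in any other library. The repeated cluster in an intron of Sfmbt2, another imprinted set, summed to 115.0 RPM in MEF, 697.2 RPM in LSK and 6351 RPM in DN3. Other imprinted miRNAs from outside the locus summed to 13250 RPM in MEF and 22876 RPM in DN4.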
